A study of Mus musculus with 6 samples.

Results

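The genes described here carry an interferon signal from the cell surface to the nucleus. They are the receptor chains Ifnar1, Ifnar2, Ifngr1 and Ifngr2, the Janus kinases Jak1 and Tyk2, the transcription factor Stat2, and the interferon regulatory factors Irf1, Irf7 and Irf9. They were taken by gene symbol from the array's annotation, as 10 of the 19505 genes named there, and each of the 10 was read by 1 probe set. They were read in 3 mouse lines derived from melan-a, an immortalized pigment cell line of C57BL/6J origin. The line mKitK641E(T), called T, carries Kit with the K641E substitution, has the title mark C3# and is described as transformed melanoma. The line mKitK641E(PT), called PT, carries the same mutant Kit, has the title mark hi exp and the same description. The line mVec carries the control vector CD516B2 and is described as melanocytes. Kit encodes the tyrosine kinase that binds stem cell factor, and K641E is a known activating substitution. All 3 lines were grown in RPMI with serum and were not treated. No interferon was added, so the values are those of untreated cultures. Each group is 1 line with 2 Affymetrix Clariom S arrays. The sources used here do not give what T and PT stand for, or whether the 2 arrays of a line are separate cultures. Errors and p-values therefore reflect only how far duplicate arrays scattered, which may be technical.

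Type I interferons (alpha and beta) bind a receptor made of IFNAR1 and IFNAR2, and interferon gamma binds a receptor made of IFNGR1 and IFNGR2. IFNAR1 is bound by the kinase TYK2 and IFNAR2 by JAK1, while the gamma receptor uses JAK1 and JAK2. The type I receptor activates STAT2, which with IRF9 is part of ISGF3, the factor that binds interferon-stimulated response elements. Signals from the gamma receptor reach GAS elements and switch on Irf1 among other genes. IRF7 is itself induced by ISGF3 and amplifies production of type I interferons, so that several of these genes are both parts and products of the pathway.

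The values are log2 expression values as deposited, 1 per probe set and array. Array medians over the 22206 gene probe sets lay between 5.64 and 5.89, and the 2 arrays of a line correlated across genes with r = 0.993 (T), 0.994 (PT) and 0.995 (mVec). The background limit of an array was the level under which 95% of its 5222 negative controls lay, the 95th percentile, which gave 8.74 to 9.16. Signs of the labelled cell type were weak. Of 13 melanocyte markers, 12 stayed under the limit on all 6 arrays, among them Tyr, Tyrp1, Dct, Pmel, Mlana, Sox10 and Kit itself, so that the introduced gene gives no check of the labels. Mitf, the master regulator of pigment cells, was above background on both T arrays. Fibroblast markers went both ways. In each Kit line 5 of 9 were called lower than in mVec (Col1a1, Col3a1, Dcn, Lum and Pdgfrb) and 2 higher (Col1a2 and Fbln1). Over all gene probe sets, 15.5% were called lower and 16.9% higher in T, and 18.0% and 17.9% in PT. Col1a2 averaged 9.23 in T, 9.22 in PT and 5.07 in mVec. Lum, Fbln1 and the uncalled Thy1 and Dpt were at background throughout. The summed linear level of the 9 is set mostly by the brightest genes. It was 5940.2 and 6659.3 on the T arrays, 3756.4 and 4663.6 on the PT arrays, and 126349.3 and 142723.2 on the mVec arrays. No array had any of the 8 measured leukocyte markers or 7 keratinocyte markers above background. The part of the fibroblast markers in the differences below was not tested. Fewer cells of a type and less RNA per cell cannot be told apart in these bulk samples.

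Both Kit lines held less transcript than mVec for nearly the whole set. In T, 9 of the 10 genes fell and Ifngr1 rose. In PT the same 9 genes fell, and Ifngr1 did not pass the test. The receptor chains and Jak1 stayed above background in every line, while Tyk2, Stat2, Irf1, Irf7 and Irf9 were at background in both Kit lines, so that only a lower bound holds for the size of their falls. Over all gene probe sets 15.5% were called lower and 16.9% higher in T than in mVec. For PT the shares were 18.0% lower and 17.9% higher. The median log2 difference of the 10 genes was -2.21 in T and -2.64 in PT, beside medians of 0.01 and 0.08 over all gene probe sets. These medians include fitted differences of genes at background, whose size rests on values under the limit. The test was limma's moderated test over all probe sets, called at a Benjamini-Hochberg adjusted p under 0.05. The comparisons of T and of PT share the mVec arrays, so they are not independent of each other. Centring each array on its median raised every difference from mVec by 0.18 in T and 0.19 in PT. Among all called probe sets, the share higher in T was 52.3% as deposited and 62.3% after centring, and the share higher in PT was 49.9% as deposited and 60.3% after centring. The 9 genes were called lower in both lines either way.

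**Figure D1:**
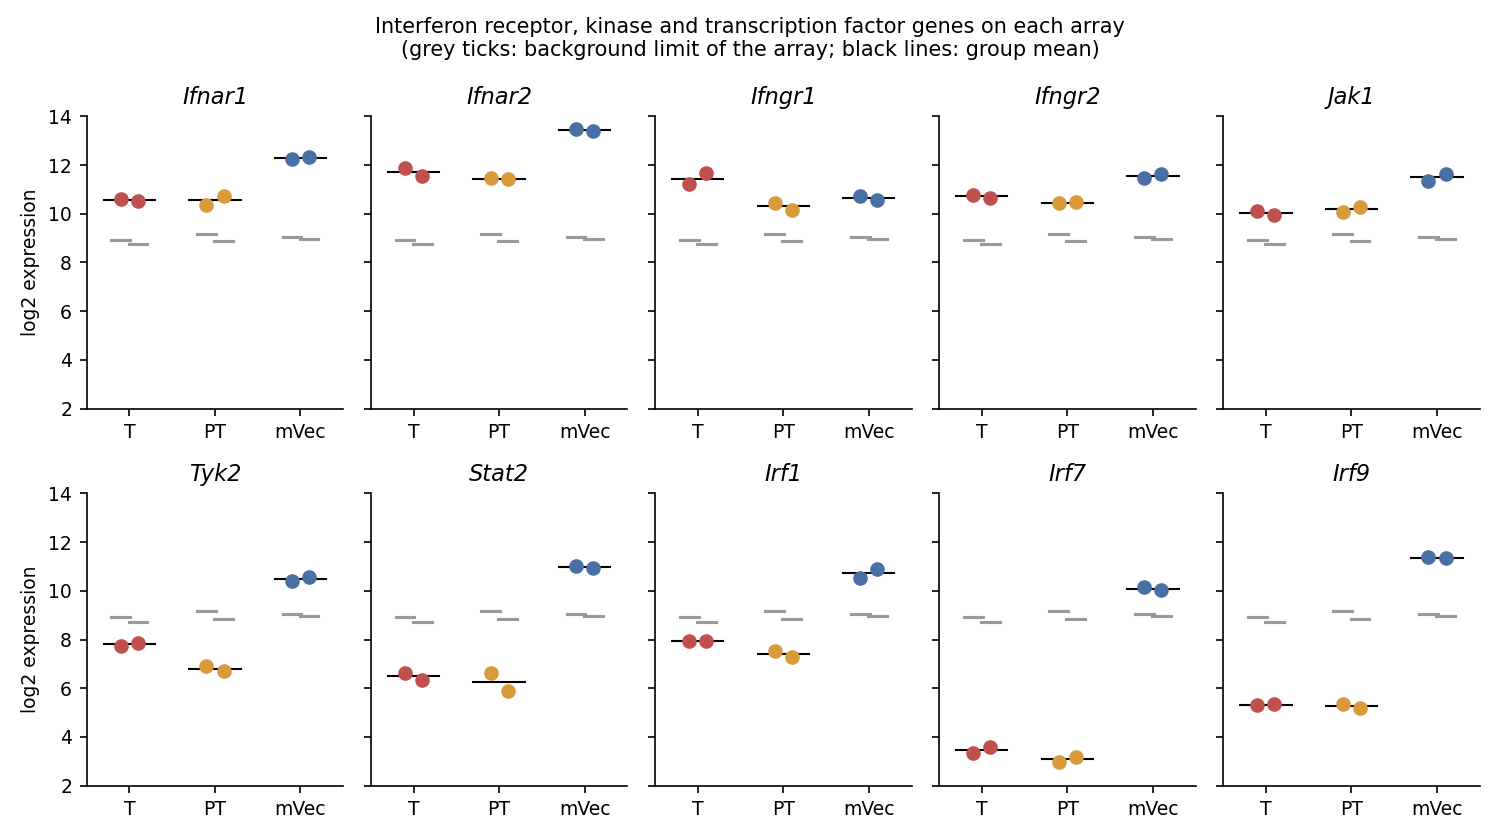
Log2 expression of the 10 genes (vertical axis) on each of the 6 arrays, in lines T, PT and mVec; each point is an array, black lines are group means and grey ticks the background limit of that array. Tyk2, Stat2, Irf1, Irf7 and Irf9 lie under the limit on all 4 Kit line arrays and above it on both mVec arrays, while the receptor chains and Jak1 lie above it on all 6.

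The type I receptor chains were lower in both Kit lines by similar amounts. Ifnar1, the chain that binds TYK2, had log2 values of 10.60 and 10.51 on the T arrays, 10.38 and 10.74 on the PT arrays, and 12.23 and 12.35 on the mVec arrays. All 4 Kit line arrays were below both mVec arrays. It was 3.32-fold lower in T (log2 difference -1.73 ± 0.21, standard error of the limma fit; adjusted p = 0.000155) and 3.31-fold lower in PT (-1.73 ± 0.21, adjusted p = 0.000124).

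Ifnar2, the chain that binds JAK1 and carries the main docking sites for STAT proteins, had 11.89 and 11.55 on the T arrays, 11.45 and 11.43 on the PT arrays, and 13.46 and 13.39 on the mVec arrays. Again no Kit line array reached an mVec array. The fall was 3.26-fold in T (log2 difference -1.71 ± 0.21, limma adjusted p = 0.000152) and 3.96-fold in PT (-1.99 ± 0.21, adjusted p = 4.12e-05).

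The chains of the gamma receptor went apart from each other in T. Ifngr2, its signal-transducing chain, had log2 values of 10.77 and 10.66 on the T arrays, 10.44 and 10.47 on the PT arrays, and 11.47 and 11.62 on the mVec arrays. It was 1.78-fold lower in T (-0.83 ± 0.20, limma adjusted p = 0.00921) and 2.12-fold lower in PT (-1.09 ± 0.20, adjusted p = 0.0016). The T call was lost without mVec replicate 2 (adjusted p = 0.0779), and among its 15 alternatives this p lay between 0.00172 and 1, the highest being the test against a log2 difference of 1.

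Ifngr1, the ligand-binding chain, was the exception of the set. It had log2 values of 11.22 and 11.67 on the T arrays, 10.46 and 10.15 on the PT arrays, and 10.73 and 10.57 on the mVec arrays. The T arrays were the highest of the 6 and the PT arrays the lowest. Ifngr1 was 1.73-fold higher in T than in mVec (0.79 ± 0.23, limma adjusted p = 0.0261), and in PT the difference was -0.35 ± 0.23 (95% confidence interval -0.87 to 0.18, adjusted p = 0.315). Dropping T replicate 2 ended the call in T (adjusted p = 0.155), and so did dropping mVec replicate 1 (0.0754) or mVec replicate 2 (0.146), and the adjusted p lay between 0.0075 and 1 among its 15 alternatives.

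The kinases both fell in each Kit line. Jak1, which serves both receptors, had 10.12 and 9.95 on the T arrays, 10.07 and 10.29 on the PT arrays, and 11.35 and 11.63 on the mVec arrays, with no overlap between either Kit line and mVec. It was 2.75-fold lower in T (-1.46 ± 0.21, limma adjusted p = 0.000466) and 2.48-fold lower in PT (-1.31 ± 0.21, adjusted p = 0.000778).

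Tyk2, the kinase of the IFNAR1 chain, had 7.73 and 7.86 on the T arrays, 6.92 and 6.70 on the PT arrays, and 10.42 and 10.56 on the mVec arrays. It was above background on both mVec arrays and at background on all 4 Kit line arrays, so its fold can only be bounded, by setting mVec against the limit. In T, Tyk2 was at least 3.16-fold lower (log2 difference -2.70 ± 0.21, limma adjusted p = 6.27e-06), and in PT at least 2.79-fold lower (-3.68 ± 0.21, adjusted p = 6.17e-07). A bound reflects the limit and not the fitted difference: the bound is smaller in PT although the fitted difference is larger there.

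**Figure D2:**
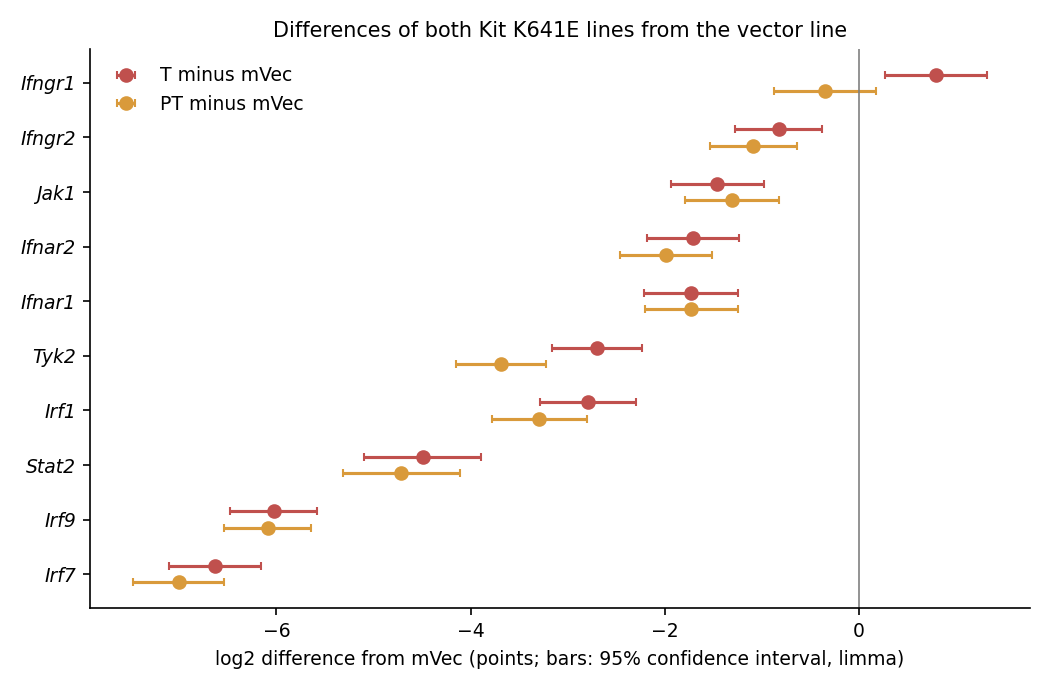
Log2 difference from mVec (horizontal axis) of each of the 10 genes in T and in PT; points are the limma estimates from 2 arrays per line and bars their 95% confidence intervals. The differences run from 0.79 for Ifngr1 in T to -7.01 for Irf7 in PT, and Ifngr1 in PT is the 1 interval that includes 0.

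The ISGF3 subunits Stat2 and Irf9 were at background in both Kit lines. Stat2, which brings the transactivation domain to ISGF3, had log2 values of 6.64 and 6.32 on the T arrays, 6.62 and 5.90 on the PT arrays, and 11.04 and 10.92 on the mVec arrays. Every Kit line array was more than 4 log2 units below either mVec array. In T it was at least 4.42-fold lower (log2 difference -4.49 ± 0.27, limma adjusted p = 1.36e-06), and in PT at least 3.90-fold lower (-4.72 ± 0.27, adjusted p = 6.79e-07).

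Irf9, the DNA-binding subunit of ISGF3, had 5.31 and 5.35 on the T arrays, 5.36 and 5.19 on the PT arrays, and 11.39 and 11.33 on the mVec arrays. The 4 Kit line arrays lay close together, and far from mVec. In T, Irf9 was at least 5.76-fold lower (-6.03 ± 0.20, limma adjusted p = 5.05e-08), and in PT at least 5.09-fold lower (-6.09 ± 0.20, adjusted p = 2.84e-08).

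Irf7, the regulatory factor that drives interferon alpha genes, had 3.33 and 3.58 on the T arrays, 2.98 and 3.19 on the PT arrays, and 10.15 and 10.03 on the mVec arrays. All 4 Kit line arrays were far under the limit. The fitted log2 difference was -6.63 ± 0.21 in T (limma adjusted p = 3.98e-08) and -7.01 ± 0.21 in PT (adjusted p = 2e-08). Since mVec was only moderately above the limit, the bounded folds were small, in T at least 2.39-fold lower and in PT at least 2.11-fold lower.

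Irf1, a factor induced early by interferon gamma, had 7.93 and 7.93 on the T arrays, 7.55 and 7.30 on the PT arrays, and 10.54 and 10.90 on the mVec arrays. The groups of Kit lines did not overlap with mVec, and the Kit line values were closer to the limit than those of Irf7 or Irf9. In T, Irf1 was at least 3.69-fold lower (-2.79 ± 0.22, limma adjusted p = 7.55e-06), and in PT at least 3.26-fold lower (-3.29 ± 0.22, adjusted p = 1.82e-06).

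The division of the set into genes above and at background depends on the limit. At the 90th percentile of the negative controls (7.69 to 7.99), 6 of the 10 genes were above it on both arrays in T, 5 in PT and 10 in mVec. At the 99th percentile (12.15 to 13.07), the counts were 0, 0 and 1, and the gene in mVec was Ifnar2. The log2 differences and their tests do not use the limit.

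The promoters of the nuclear factors are shown because these genes fell together and because interferon signals act through known short sequences. The sequences are from RefSeq (GRCm38.p6) and run 5′ to 3′ on the gene's strand, from 250 bases before the start site to 50 after it. Capitals mark matches to 3 motifs searched on both strands: the interferon-stimulated response element core GAAANNGAAA, the same repeat with a shorter spacer GAAANGAAA, and the GAS core TTCNNNGAA, which reads alike on both strands. The windows are chr10:128270248-128270547 on the plus strand for Stat2, chr11:53769764-53770063 on the plus strand for the upstream start of Irf1, chr7:141266375-141266674 on the minus strand for Irf7, and chr14:55603735-55604034 on the plus strand for the upstream start of Irf9.
Stat2: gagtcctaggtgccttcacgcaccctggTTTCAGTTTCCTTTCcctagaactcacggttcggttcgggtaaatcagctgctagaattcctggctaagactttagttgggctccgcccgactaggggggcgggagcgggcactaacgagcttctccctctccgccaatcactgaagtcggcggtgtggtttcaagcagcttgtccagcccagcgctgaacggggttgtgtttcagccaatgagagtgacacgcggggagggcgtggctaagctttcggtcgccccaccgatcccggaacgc
Irf1: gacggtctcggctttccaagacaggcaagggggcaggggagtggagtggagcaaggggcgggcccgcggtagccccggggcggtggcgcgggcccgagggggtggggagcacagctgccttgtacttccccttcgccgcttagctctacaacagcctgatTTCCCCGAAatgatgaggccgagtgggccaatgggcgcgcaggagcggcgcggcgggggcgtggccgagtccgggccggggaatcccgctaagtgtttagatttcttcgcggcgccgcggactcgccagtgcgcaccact
Irf7: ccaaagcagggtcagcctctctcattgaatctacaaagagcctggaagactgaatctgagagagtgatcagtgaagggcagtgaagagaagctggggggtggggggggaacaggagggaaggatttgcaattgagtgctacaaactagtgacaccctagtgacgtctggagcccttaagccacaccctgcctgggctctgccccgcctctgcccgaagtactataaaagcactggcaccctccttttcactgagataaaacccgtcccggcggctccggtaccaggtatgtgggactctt
Irf9: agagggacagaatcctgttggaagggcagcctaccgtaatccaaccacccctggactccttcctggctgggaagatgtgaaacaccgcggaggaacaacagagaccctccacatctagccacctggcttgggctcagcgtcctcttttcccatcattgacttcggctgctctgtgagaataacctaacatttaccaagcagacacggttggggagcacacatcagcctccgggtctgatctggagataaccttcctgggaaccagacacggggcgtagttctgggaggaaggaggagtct

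In Stat2 the GAAANNGAAA and GAAANGAAA matches lie on the opposite strand and overlap, beginning 222 and 216 bases before the start site, where the printed strand reads TTTCAGTTTC and TTTCCTTTC. In Irf1 the GAS core TTCCCCGAA begins 90 bases before the upstream start. None of these letters was found in the window of Irf7 or in either window of Irf9. The receptor genes held GAS cores as well, TTCACGGAA beginning 5 bases before the start in Ifnar1 and TTCCTGGAA beginning 214 bases before it in Ifnar2. Across the 12 windows of the 10 genes, GAAANNGAAA and GAAANGAAA each occurred in 1 and TTCNNNGAA in 3. Of 32851 promoter windows of this length, 3.44% held GAAANNGAAA, 3.17% GAAANGAAA and 8.3% TTCNNNGAA. A match describes letters in a window and is not evidence of binding.

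The Kit lines were then set against each other, which tests whether their differences from mVec differ. Of the 10 genes, 2 were higher in T than in PT and 0 lower, while 5.67% of all gene probe sets were called higher in T and 2.70% lower. Ifngr1 was 2.20-fold higher in T (log2 difference 1.14 ± 0.23, limma adjusted p = 0.0183). Tyk2 was also called higher in T (0.99 ± 0.21, adjusted p = 0.0192), with both lines at background, so no fold is given.

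Both calls rest on few arrays. Removing T replicate 2 ended the Ifngr1 call (adjusted p = 0.111), as did removing PT replicate 1 (0.0645) or PT replicate 2 (0.107), and its alternatives spanned 0.0043 to 1. The Tyk2 call was lost without the same 3 arrays (0.098, 0.0691 and 0.104) and with quantile normalization (0.0563), and its alternatives spanned 0.00372 to 1.

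For the other 8 genes the T minus PT difference did not pass the limma test. Irf1, at background in both lines, had the lowest adjusted p of these (0.50 ± 0.22, lower end of the 95% confidence interval 0.01, adjusted p = 0.213). The interval of Ifnar1, which was above background in both lines, ran from -0.49 to 0.48. Stat2, Irf1, Irf7 and Irf9 were at background in both lines, so their intervals set no limit on a difference in transcript. With 2 arrays against 2, an exact two-sided permutation test cannot go below p = 0.333, so none was used.

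**Figure D3:**
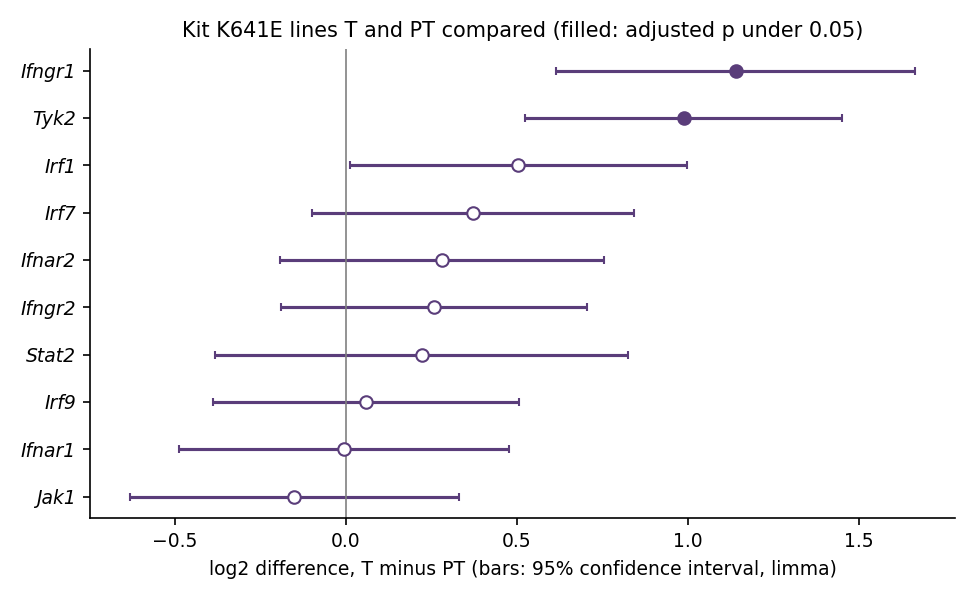
Log2 difference T minus PT (horizontal axis) of the 10 genes, with 95% confidence intervals from limma on 2 arrays per line; filled points passed the test at an adjusted p under 0.05. Ifngr1 (1.14) and Tyk2 (0.99) are filled, and the other 8 lie between -0.15 and 0.50.

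Other parts of the pathway were read from gene lists. The interferon genes themselves were at background throughout: of 19 measured ligands, 0 were above the limit on any array. Against mVec, 1 was called higher in T, Ifna16 (log2 difference 0.85 ± 0.29, limma adjusted p = 0.0476), and 1 in PT, Ifnb1 (0.74 ± 0.24, adjusted p = 0.035), both with no fold because both groups were at background. None was called lower. Among all gene probe sets, 16.9% were called higher and 15.5% lower in T, and 17.9% and 18.0% in PT. The Ifna16 call was lost in 8 alternatives, without T replicate 2, mVec replicate 1 or mVec replicate 2 among them. The Ifnb1 call was lost in 5, without PT replicate 1, mVec replicate 1 or mVec replicate 2 among them.

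Among 8 other members of the receptor family, 1 fell, 1 rose and 6 did not pass the test in each Kit line. Over all gene probe sets, 15.5% were called lower and 16.9% higher in T, and 18.0% and 17.9% in PT. Il10rb, a chain shared by the receptors for interleukin 10 and interferon lambda, was 5.59-fold lower in T (-2.48 ± 0.23, limma adjusted p = 2.35e-05) and 7.40-fold lower in PT (-2.89 ± 0.23, adjusted p = 5.97e-06). F3, tissue factor, the cell surface starter of blood clotting, was 1.72-fold higher in T (0.78 ± 0.22, adjusted p = 0.0237) and 1.68-fold higher in PT (0.75 ± 0.22, adjusted p = 0.0258). Both F3 calls were lost without either mVec array, the T call also without T replicate 2, and the PT call also without either PT array. The 6 genes not called, among them Ifnlr1, the chain specific to interferon lambda, were at background in all 3 lines.

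Jak2, the partner of JAK1 on the gamma receptor, was 1.62-fold lower in T (-0.69 ± 0.21, limma adjusted p = 0.0322) and 3.12-fold lower in PT (-1.64 ± 0.21, adjusted p = 0.000172). Its call in T was lost after centring (adjusted p = 0.102) and without T replicate 1, mVec replicate 1 or mVec replicate 2, and the adjusted p lay between 0.00823 and 1 among its 15 alternatives. Jak2 was also higher in T than in PT (0.95 ± 0.21, adjusted p = 0.0273), a call that was lost without T replicate 2, PT replicate 1 or PT replicate 2. Jak3 is not analysed here.

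Of 5 other measured STAT genes, 3 fell in each line, while 15.5% of all gene probe sets were called lower in T and 18.0% in PT. Stat3, the main factor downstream of interleukin 6 type cytokines, was 4.76-fold lower in T (-2.25 ± 0.23, limma adjusted p = 4.26e-05) and 4.25-fold lower in PT (-2.09 ± 0.23, adjusted p = 5.31e-05). Stat5a fell 3.24-fold in T and in PT by at least 4.17-fold. Stat6, the factor of interleukin 4 signalling, was 1.63-fold lower in T (adjusted p = 0.0407) and 2.48-fold lower in PT (adjusted p = 0.00118). The Stat6 call in T was lost in 8 alternatives, centring and the removal of either mVec array among them. The other 2, Stat4 and Stat5b, did not pass the test in either line.

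Of the 5 other interferon regulatory factors measured, 0 were called in T and 1, Irf3, was called lower in PT (-1.31 ± 0.21, limma adjusted p = 0.000702). Array-wide, 15.5% of gene probe sets were called lower and 16.9% higher in T, and 18.0% and 17.9% in PT. Irf3, the constitutive factor that starts interferon beta transcription, was at background on every array. It was called higher in T than in PT as well (0.87 ± 0.21, adjusted p = 0.0358), a call lost in 8 of 14 alternatives, each of them leaving out an array or using quantile normalization, the 2 lines alone or the test against a log2 difference of 1. Irf2, an antagonist of IRF1, was above background in all 3 lines, with mean log2 values of 11.33 for T, 11.43 for PT and 11.13 for mVec, and was not called. Irf4, Irf5 and Irf8 were at background on every array and not called.

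Among 16 negative regulators, 9 fell and 3 rose in T, and 9 fell and 2 rose in PT. Of all gene probe sets, 15.5% were called lower and 16.9% higher in T, and 18.0% and 17.9% in PT. Rises were thus about as frequent in this list as over the whole array. Usp18, which displaces JAK1 from IFNAR2 and is itself an interferon-stimulated gene, was at background in both Kit lines, lower in T by at least 7.63-fold (log2 difference -7.15 ± 0.34, limma adjusted p = 3.86e-07) and in PT by at least 6.73-fold (-6.51 ± 0.34, adjusted p = 4.52e-07). Socs2, a suppressor of growth hormone and cytokine receptors, was 1.94-fold lower in T and 10.7-fold lower in PT. Its call in T was lost without T replicate 1 (adjusted p = 0.115) or mVec replicate 2 (0.136). The difference between the lines passed the test (T minus PT 2.47 ± 0.27, adjusted p = 0.00136).

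The rises among the negative regulators were in phosphatase genes, together with Pias4 in T. Ptpn2, the phosphatase TC-PTP that acts on JAK1, was 3.09-fold higher in T (1.63 ± 0.20, limma adjusted p = 0.000143) and 3.31-fold higher in PT (1.73 ± 0.20, adjusted p = 7.38e-05). Ptpn11, which encodes SHP2, was at least 1.76-fold higher in T and at least 2.65-fold higher in PT. Its call in T was lost without T replicate 1 or mVec replicate 2. Pias4 was called with both groups at background, and not without T replicate 2 or mVec replicate 2. Socs1, Socs3, Cish and Ptpn6 were called lower in both lines with all groups at background. The Socs3 calls were lost after centring and without any array of the lines compared. The Ptpn6 call in PT was lost in the same way.

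Genes that ISGF3 switches on were lower in both Kit lines: of 26 measured, 24 fell in T and 24 in PT, 0 rose, and Oas3 and Oasl1 did not pass the test. The shares over all gene probe sets were 15.5% lower and 16.9% higher in T, and 18.0% and 17.9% in PT. In each line 3 of the 24, Oas1a, Oas2 and Zbp1, were called with both groups at background. The medians were -4.38 in T and -4.36 in PT. Bst2, the antiviral membrane protein tetherin, was above background in every line and was 107-fold lower in T (-6.75 ± 0.20, limma adjusted p = 2.86e-08) and 72.7-fold lower in PT (-6.18 ± 0.20, adjusted p = 2.52e-08). Its values of 9.10 and 8.97 on the T arrays lay close to the limits there (8.93 and 8.74). Isg15, a ubiquitin-like modifier, was also lower, in T by at least 6.72-fold and in PT by at least 5.93-fold. The RNA sensor Rigi, listed as Ddx58 in the annotation, was 8.94-fold lower in T and 13.2-fold lower in PT. The list includes Usp18.

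Genes usually tied to interferon gamma mostly fell where they were above background in mVec. Of 19 measured, 10 fell in T and 11 in PT, while 0 rose in T and 1, Cxcl10, in PT. Beside these counts, 15.5% of all gene probe sets were called lower and 16.9% higher in T, and 18.0% and 17.9% in PT. The genes not called were at background in all 3 lines, apart from Cxcl10 in T. In mVec, 10 of the 19 were above background on at least 1 array. Igtp in both lines and Cd274 in PT were called with both groups at background. The guanylate-binding proteins and immunity-related GTPases made up most of the falls, with Gbp7 lower in T by at least 57.4-fold and in PT by at least 50.7-fold. The corresponding bounds for Iigp1 were at least 30.1-fold in T and at least 26.6-fold in PT. The chemokine Cxcl10 averaged 9.50 for T, 10.18 for PT and 9.05 for mVec on the log2 scale, and was 2.18-fold higher in PT than in mVec (log2 difference 1.13 ± 0.24, limma adjusted p = 0.00383), where 1 of the mVec arrays was above background. The lists of targets, like the 10 genes, were chosen with earlier results known, and their counts are a description of these arrays.

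**Figure D4:**
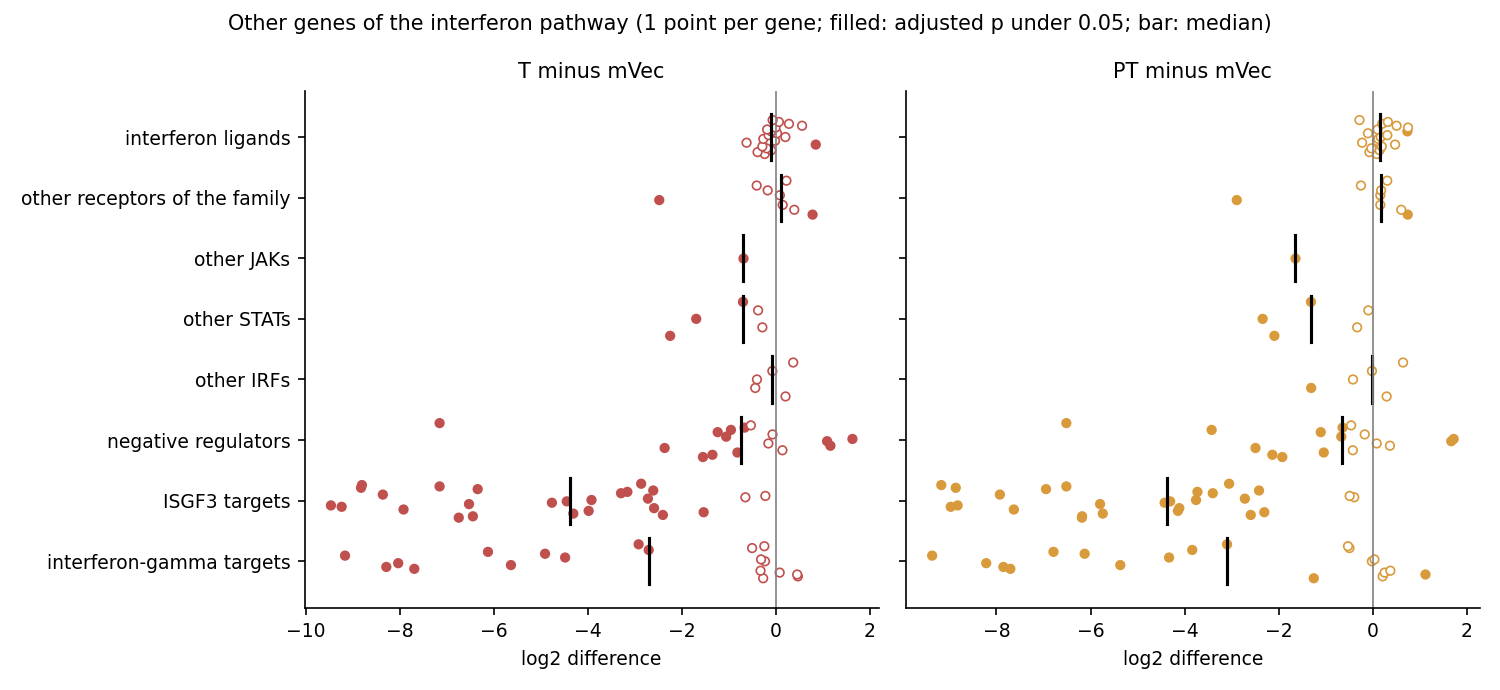
Log2 difference from mVec (horizontal axis) in T and in PT for each measured gene of 8 pathway lists; each point is a gene, filled where the limma adjusted p was under 0.05, and black bars are list medians. Ligands lie near 0, and the ISGF3 target medians lie at -4.38 in T and -4.36 in PT.

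Ifnar2, Ifnar1 and Ifngr2 are neighbours on chromosome 16 in the GRCm38.p6 annotation, with Il10rb between Ifnar2 and Ifnar1, a feature that was not used to choose the genes. All 4 were lower in both Kit lines, as given above. Tmem50b, which follows Ifngr2, was lower too, with log2 differences of -2.45 in T (limma adjusted p = 2.52e-05) and -3.10 in PT (adjusted p = 3.8e-06). Dnajc28, the next gene, was at background and not called, and Gart, an enzyme of purine synthesis after it, was higher in both lines (2.30 in T and 3.25 in PT). Past Gart, Son was above background and not called, and Donson was called higher in both lines (2.33 in T and 2.51 in PT). Donson was above background on only 1 T array and 1 PT array, and on 0 mVec arrays. On the other side, Olig1, which precedes Ifnar2, was at background and not called. Further out, Olig2 and Synj1, at background in all 3 lines, were called lower in T only (limma adjusted p = 0.0128 and 0.0323). Paxbp1 (1.77 in T and 1.63 in PT) and Cfap298 (1.74 and 2.60) were called higher in both lines. Paxbp1 was above background in all 3 lines, but Cfap298 only on 1 PT array. These flanking genes were looked at after their values were known. The other 7 genes of the set lie on 6 other chromosomes, where Ifngr1 and Stat2 share chromosome 10.

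**Figure D5:**
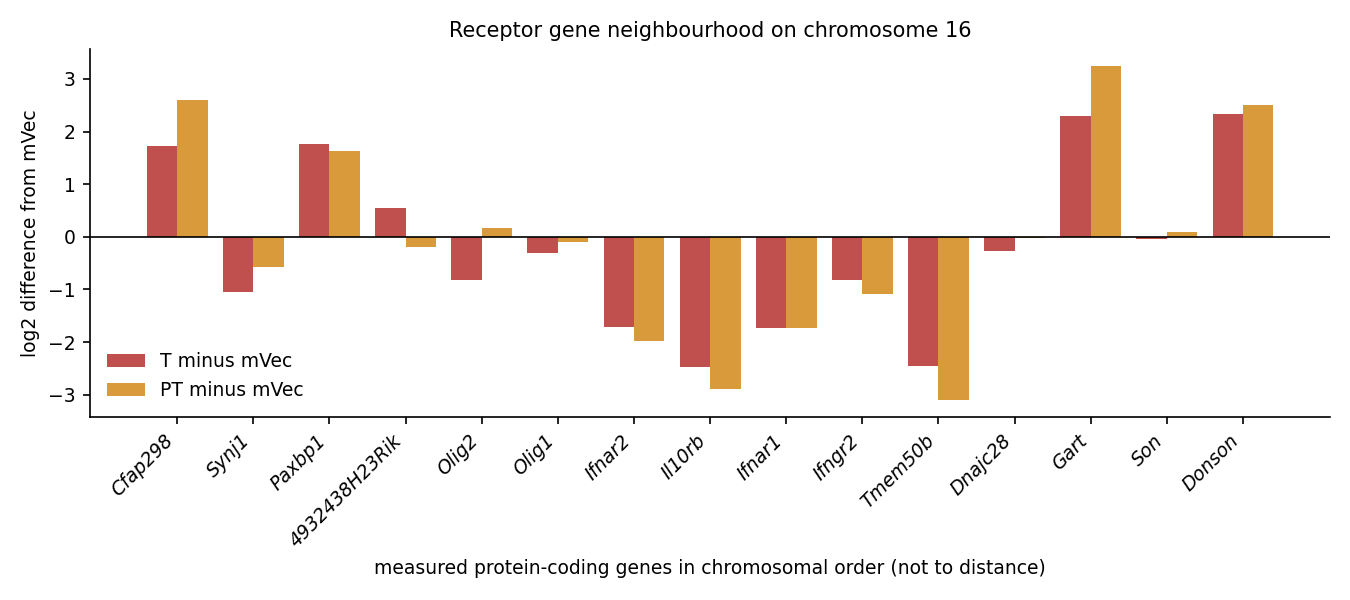
Log2 difference from mVec (vertical axis) in T and in PT for the measured protein-coding genes around the receptor genes of chromosome 16, in chromosomal order without distances; bars start at 0 and each is the limma estimate from 2 arrays per line. The genes called lower in both lines run from Ifnar2 to Tmem50b without a gap, and Gart has positive bars of 2.30 and 3.25.

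The genes whose profile over the 6 arrays was most like each of the 10 were found by the root mean square difference of log2 values centred over the arrays, among 7001 named genes above background on both arrays of at least 1 line. For Irf7 the nearest were the pericyte and stromal marker Cd248 (0.18), the AP-1 gene Fos (0.19) and the transcription cofactor Vgll3 (0.19). For Irf9 they were the integrin chain Itga9 (0.17), the nuclear receptor Nr4a1 (0.18) and the mitochondrial carrier Slc25a23 (0.19), and for Stat2 the zinc finger gene Bnc2 (0.17), Tenm3 (0.18) and Osr2 (0.21). For Tyk2 the nearest were the chemokine Ccl2 (0.09) and the regulatory subunits of phosphatidylinositol 3-kinase Pik3r1 (0.11) and Pik3r3 (0.11). For Ifngr1 they were Sh3bp1 (0.05), the mitochondrial enzyme Mmut (0.09) and the purine-degrading enzyme Xdh (0.11). Sh3bp1 averaged 8.38 in PT and 8.79 in mVec, under the limits of those arrays. Of the 30 genes found for the whole set, 0 belonged to any of the 12 other lists. Those lists make up a small part of the candidates, so this count says little about the pathway. For Tyk2, Stat2, Irf1, Irf7 and Irf9 the likeness includes values at background on the 4 Kit line arrays. All of the nearest genes named for Irf7 and Irf9, and Osr2 and Ccl2, also averaged under the limit in both Kit lines. The likeness of these pairs therefore rests partly on values under the limit on both sides. The 6 arrays come from 3 lines, so this is a description of shape over 3 group levels.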

How the data were processed

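Total RNA of the 3 lines was hybridised to 6 Affymetrix Clariom S arrays, per the labels' protocols. The authors deposited log2 expression, 1 value for each probe set on each array. The unit was read from the values. Software, background correction, normalization and genome build: not given in the sources used here. Of 28846 rows, 22206 gene probe sets were kept, of which 19572 have 1 gene symbol. The other 2634 were used without a symbol, and a probe set with several symbols would be counted among them. No filter on low values was used. R 4.3.3 and limma 3.58.1 fitted 1 mean per line to all 6 arrays (3 residual and 6.36 prior degrees of freedom), with two-sided p-values and Benjamini-Hochberg adjustment across the gene probe sets within each of 3 comparisons. Depth does not apply to arrays, and their number limits the precision. The fit was tested on simulated data.

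Where a group had no array above its background limit, the fold is a bound against that limit; where both had none, no fold is given. Replicate numbers did not pair arrays (correlation of deviations 0.08, 0.04 and 0.04 between the lines). Named genes are the 10 members, genes of 12 fixed lists that were called or stand in lists of under 10 genes, and the 3 nearest profiles of each member. The members, lists and rules were chosen with earlier results of these data known. All 12 promoter windows of the 10 genes were matched by symbol. The alternatives were centring, quantile normalization, trended and robust moderation, filters on dim probe sets, a test against a log2 difference of 1, the lines compared alone, the replicate number as a block, and each array left out.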

Additional observations from a re-analysis of the deposited data

How the results depend on the processing

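The 9 genes lower than mVec in each Kit line give 18 differences, which kept their sign in all 268 values recomputed under up to 15 alternatives each and their call in 263. The 5 lost calls were Ifngr2 without mVec replicate 2 in T and, in the test against a log2 difference of 1, Ifngr2 and Jak1 in both lines. Irf7 has 14 alternatives because its mean fell below the filter at the median. Ifngr1 as the 1 gene higher in T than in mVec was not called against a log2 difference of 1 (count 0), and leaving out an array gave counts of 0 to 1. The count of 2 genes higher in T than in PT was 1 with quantile normalization, 0 against a log2 difference of 1, and 0 to 2 when an array was left out. Small T minus PT differences changed sign without single arrays: Ifnar1 ran from -0.19 to 0.18, Stat2 from -0.14 to 0.58 and Irf9 from -0.027 to 0.15. Over all probe sets, the test against a log2 difference of 1 called 2730 in T, 3495 in PT and 59 between the lines, and leaving out an array called 549 to 1714 between the lines, against 7201, 7975 and 1857. With the replicate block the counts were 7330 in T and 8054 in PT, 9 of the genes were lower in each, and the block ended no call among the 10 genes. No gene had a further probe set to try. Signal over background limits the folds of Tyk2, Stat2, Irf1, Irf7 and Irf9 to bounds.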
